A study of Homo sapiens with 12 samples.

Results

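The genes described here are 41 genes of DNA double-strand break repair, interstrand crosslink repair and mismatch repair, chosen by gene symbol. The choice was made with earlier results of these data known. All 41 were found among the 18668 genes of the deposited read table of 22Rv1 cells, a human prostate cancer cell line derived from a castration-resistant xenograft. The cells, of wild-type genotype per the labels, received 1 of 4 treatments for 24 h: vehicle, enzalutamide (an antiandrogen used against prostate cancer), a degrader, or an autophagy-activating ligand. There were 3 libraries per treatment, from cultures described as biologically independent, so n = 3 for every mean given here. Doses are not given in the sources used here, and all results are from 1 cell line at 1 time.

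A double-strand break can be repaired by homologous recombination, which resects the break and copies the intact sister chromatid, or by end joining, which ligates the ends with little or no template. The Fanconi pathway unhooks crosslinks between the strands and hands the resulting breaks to recombination, and mismatch repair removes bases that the replicative polymerases inserted wrongly. In prostate cancer, inherited or acquired defects in BRCA2, ATM and related genes are the basis on which patients are selected for PARP inhibitors.

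The libraries held 55.5 to 77.2 M counted reads, and each of the 41 genes had between 277 and 68403 reads in every library. All 41 passed the filter on low counts that left 17702 genes for testing. FKBP5 and KLK2, both androgen-induced, served as a check of the treatments. The level of FKBP5, in CPM (a gene's reads over the library's scaled total), was 922 in vehicle cells and fell to 387 under enzalutamide and 459.5 under the degrader. Under the ligand it was 894, a change that was not called (adjusted p = 0.91, edgeR). KLK2 fell under all 3 compounds, from 71 CPM to 53.2 (enzalutamide), 57 (ligand; adjusted p = 0.0331) and 33.5 (degrader). Set against enzalutamide, the degrader libraries were lower for KLK2 (log2 fold change -0.67) and higher for FKBP5 (0.25). All 9 luminal prostate markers were present, at 26.6 to 924 TPM (a deposited unit of level per transcript length). Of the 14 basal, stromal, immune and neuroendocrine markers, KRT5, KRT14, COL1A2, PTPRC and CD3E were not listed in the table. The others were listed, from 0.0376 TPM for DCN in its lowest library to 219 for ENO2 in its highest. ENO2 (168 to 219) and SYP (59.9 to 70.4), both neuroendocrine, lay above the luminal TMPRSS2 (26.6 to 30.7). Degrader libraries stood apart on the first principal component, which held 31.6% of the variance (30.3 to 34.3, against -15.7 to -4.4 for the other 9 libraries).

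The repair genes differed widely in level. Vehicle TPM ran from 5.45 for FANCB to 625 for XRCC6. Their median was 28.5 TPM against 9.25 for all genes listed. After XRCC6, which encodes the Ku70 subunit of the end-binding Ku heterodimer, the next in order were PARP1, the break-sensing poly(ADP-ribose) polymerase, at 471, UBE2T, the ubiquitin-conjugating enzyme of the Fanconi pathway, at 327, and XRCC5, the Ku80 subunit, at 314. BRCA1 (44.3), BRCA2 (6.1) and ATM (10.6 TPM) were much lower.

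Promoter sequences are shown for 5 genes that fell with the degrader and for BRCA2, which did not pass the test, because many repair genes are transcribed with the cell cycle through 3 promoter elements. These are the E2F site (searched as TTTCCCGC, TTTCGCGC, TTTGCCGC or TTTGGCGC), the CHR element (TTCGAA or TTTGAA) and the CCAAT box (CCAAT), each on both strands. Sequences are RefSeq's on GRCh38.p14, from 180 bases before to 14 after the annotated start, written 5′ to 3′ along the gene, with matches in capitals:
UBE2T, chr1:202341923-202342116, minus strand: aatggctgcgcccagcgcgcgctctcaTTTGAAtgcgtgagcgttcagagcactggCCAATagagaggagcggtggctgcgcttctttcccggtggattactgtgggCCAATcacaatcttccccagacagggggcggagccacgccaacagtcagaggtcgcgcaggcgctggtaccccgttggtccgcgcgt
CHEK2, chr22:28741807-28742000, minus strand: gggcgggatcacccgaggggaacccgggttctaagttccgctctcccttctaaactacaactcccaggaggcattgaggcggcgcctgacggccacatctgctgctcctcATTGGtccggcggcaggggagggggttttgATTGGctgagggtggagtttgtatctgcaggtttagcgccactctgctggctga
EXO1, chr1:241848024-241848217, plus strand: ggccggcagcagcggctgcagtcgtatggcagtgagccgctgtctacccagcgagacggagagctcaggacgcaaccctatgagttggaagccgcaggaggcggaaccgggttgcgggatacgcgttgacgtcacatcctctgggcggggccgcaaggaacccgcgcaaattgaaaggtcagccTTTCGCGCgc
FANCD2, chr3:10026257-10026450, plus strand: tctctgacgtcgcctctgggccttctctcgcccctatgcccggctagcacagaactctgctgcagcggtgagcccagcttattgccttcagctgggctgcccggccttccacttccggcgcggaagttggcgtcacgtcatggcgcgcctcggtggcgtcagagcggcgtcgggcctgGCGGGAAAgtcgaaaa
MSH6, chr2:47782965-47783158, plus strand: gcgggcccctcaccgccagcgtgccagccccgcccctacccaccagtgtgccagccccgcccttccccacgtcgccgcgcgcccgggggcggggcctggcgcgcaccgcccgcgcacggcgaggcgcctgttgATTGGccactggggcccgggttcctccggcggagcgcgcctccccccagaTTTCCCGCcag
BRCA2, chr13:32315328-32315521, plus strand: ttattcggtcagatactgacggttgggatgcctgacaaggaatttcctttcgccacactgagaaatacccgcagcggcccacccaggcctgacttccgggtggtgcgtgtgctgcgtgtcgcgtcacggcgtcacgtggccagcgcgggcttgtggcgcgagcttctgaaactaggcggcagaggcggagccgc
UBE2T held a CHR match and 2 CCAAT boxes, CHEK2 held 2 CCAAT boxes on the opposite strand, EXO1 and FANCD2 each held 1 E2F match, MSH6 held both an E2F match and a CCAAT box, and BRCA2 held none of these letters. Promoters of 300 bases were given for 37 of the 41 genes; FANCI, NBN, PRKDC and XRCC5 had no entry. An E2F match was present in 8 of the 37 (21.6%), against 3.33% of all 27305 promoters. Split by the test described next, it was present in 6 of the 18 promoters of genes that fell with the degrader (33.3%) and in 2 of the other 19 (10.5%). CCAAT matches were in 48.6% of the repair gene promoters (55.6% of the lowered genes, 42.1% of the others) against 35.7% of all promoters, and CHR matches in 13.5% (11.1% and 15.8%) against 16.6%. The 6 promoters shown are examples and do not stand for the rest. Among genes that fell, PARP1, RAD51C, FANCG and RBBP8 held no match in their 300 bases. Among genes not called, PMS2 held 1 E2F match and 3 CCAAT boxes, and FANCC held 2 E2F matches and 1 CHR match. A letter match is a description of the sequence and was not tested as a binding site.

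The comparison of degrader with vehicle asked how the degrader altered transcript levels. It lowered 22 of the 41 repair genes and raised none. A gene was called changed when edgeR's quasi-likelihood test gave a Benjamini-Hochberg adjusted p below 0.05 over all 17702 genes. The background was 16.4% of all genes called lower and 16.4% called higher, and the repair genes' share was 53.7% lower. As the 41 were chosen with earlier results known, this difference is a description and not an independent test. Their median log2 fold change was -0.19 against 0.01 for all genes, and 36 of 41 lay below 0 against 49.1% of all genes. The called falls were modest, from 12.2% to 32.8%. In every one of the 22, all 3 degrader libraries lay below all 3 vehicle libraries, and no gene reached a log2 change of 1. The calls were made on these same libraries, so the separation of the 22 is not separate support for them. Of the 41 genes, 25 had all degrader libraries below all vehicle libraries (background 22.1%). The 19 genes not called had estimates from -0.19 to 0.19, and their 95% intervals spanned -0.43 to 0.36.

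**Figure D1:**
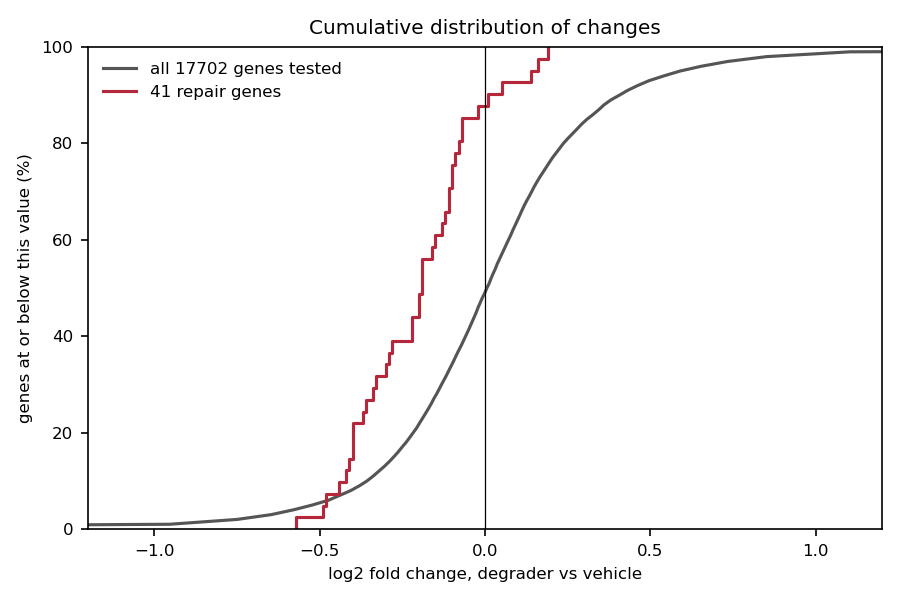
Cumulative percentage of genes (vertical axis, %) at or below each log2 fold change, degrader against vehicle (horizontal axis), for all 17702 genes tested (grey) and the 41 repair genes (red). The repair genes' curve lies to the left of 0 for most of its height, with a median of -0.19 against 0.01, and spans only -0.57 to 0.19.

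In the first steps of homologous recombination, MRE11, RAD50, NBN and RBBP8 (CtIP) start resection of the broken end and EXO1 extends it. EXO1 was at 55.2, 59.5 and 56.6 CPM in the vehicle libraries and at 38.9, 43.7 and 47 in the degrader libraries, with 50.7 to 55.7 under enzalutamide and 50.4 to 56.1 under the ligand. The degrader group thus lay below all 9 other libraries, and EXO1 fell by 24.4% (log2 fold change -0.40, SE 0.07, adjusted p = 0.000218). RBBP8 fell from 95.5 ± 2.89 to 83.8 ± 5.47 CPM (mean ± SD; log2 fold change -0.19, adjusted p = 0.0122). The RBBP8 call was lost without vehicle replicate 2 (adjusted p = 0.0663) or degrader replicate 1 (0.0676), with a range of 0.00294 to 0.0676 over 19 alternative settings. Of the MRE11-RAD50-NBN complex, NBN fell by 17.6%, from 60.5, 69.1 and 64.3 CPM to 50.9, 54.2 and 54.9 (log2 fold change -0.28, SE 0.07, adjusted p = 0.00485) and the other 2 subunits were not called; differences between the subunits were not tested. RAD50 read 161 ± 8.42 CPM with vehicle and 149 ± 7.49 with the degrader (log2 fold change -0.11, 95% interval -0.22 to 0.01), and shares 79.7% of its annotated exon bases with another gene on the same strand. MRE11 read 23.1 ± 1.74 and 25.8 ± 2.16 (0.16, interval -0.05 to 0.36), a point estimate on the other side of 0.

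The BRCA proteins load the recombinase onto resected DNA, with PALB2 joining BRCA1 to BRCA2 and BARD1 as BRCA1's partner. None of these 4 genes was called, and their degrader and vehicle libraries overlapped in 3 of them. BRCA1 read 136, 154 and 148 CPM with vehicle and 123, 141 and 145 with the degrader (log2 fold change -0.10, interval -0.24 to 0.04). BRCA2 read 28.5, 35.1 and 38 CPM in the vehicle libraries, 29.5, 33.3 and 34 under enzalutamide, 30, 28.8 and 35.8 under the ligand, and 28.2, 35 and 37.1 under the degrader. The 4 groups of BRCA2 values lay over each other, and the degrader estimate was -0.02 with an interval of -0.27 to 0.24. PALB2 (14.3 ± 0.101 and 13.3 ± 0.773 CPM, log2 fold change -0.10) and BARD1 (29.1 ± 3.21 and 27.6 ± 1.75, -0.07) were not called either.

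Several genes acting around the strand exchange itself fell, though RAD51D and BRIP1 were not called. Differences from the BRCA genes were not tested. RAD51AP1, which stimulates joint formation by the recombinase, was at 65.4, 66.7 and 71 CPM with vehicle and 44.7, 50 and 49.6 with the degrader, the largest fall of the recombination group (28.9%, log2 fold change -0.49, SE 0.06, adjusted p = 1.89e-05). Its enzalutamide libraries (59.9 to 64.5) lay between, and its ligand libraries (55.8 to 65.4) lay above the degrader libraries and reached the lowest vehicle library. RAD54L, the motor protein that promotes strand invasion, was at 30.1, 30.7 and 31.1 with vehicle and 24, 23 and 22.7 with the degrader (-0.40, SE 0.07, adjusted p = 0.000483). One ligand library, at 24.4 CPM, lay near the degrader libraries for RAD54L while the other two were at 31.2 and 29.4. Among the recombinase paralogs, RAD51C fell by 18.3% (38.2 ± 1.65 to 31.2 ± 1.66 CPM, adjusted p = 0.00127), XRCC2 had a log2 fold change of -0.20 (adjusted p = 0.0413) and XRCC3 one of -0.19 (0.0312). RAD51D, the partner of XRCC2, was not called (42.2 ± 0.587 and 39.2 ± 1.75 CPM, -0.11, adjusted p = 0.11). The XRCC2 call was lost without vehicle replicates 2 (adjusted p = 0.142) or 3 (0.104), enzalutamide replicate 3 (0.058), ligand replicate 1 (0.0538), or degrader replicates 1 (0.185) or 2 (0.0825), and ranged from 0.00369 to 0.185 over all settings. XRCC3's was lost without vehicle replicate 1 (0.0838), without vehicle replicate 2 (0.127), and without each degrader replicate (0.0574, 0.0612 and 0.0962), with a range of 0.00916 to 0.127. XRCC3 also shares 76.7% of its annotated exon bases with KLC1 on the opposite strand. The libraries were made with a stranded kit, but whether the reads were counted by strand is not given in the sources used here. It is thus not known whether reads of the pair were kept apart. The helicase BLM, which dissolves joined molecules, fell from 37.8, 43.3 and 38.8 CPM to 27.4, 33.3 and 34.3 (log2 fold change -0.34, SE 0.09, adjusted p = 0.00616). The helicase BRIP1, a BRCA1 partner, was not called (44.9 ± 5.05 and 39.4 ± 4.47 CPM, log2 fold change -0.19, interval -0.40 to 0.02). It passed without vehicle replicate 1 (adjusted p = 0.0415) and with a replicate block (0.0216), within a range of 0.0216 to 0.481. In all, 8 of the 14 recombination genes fell, with a median of -0.19.

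**Figure D2:**
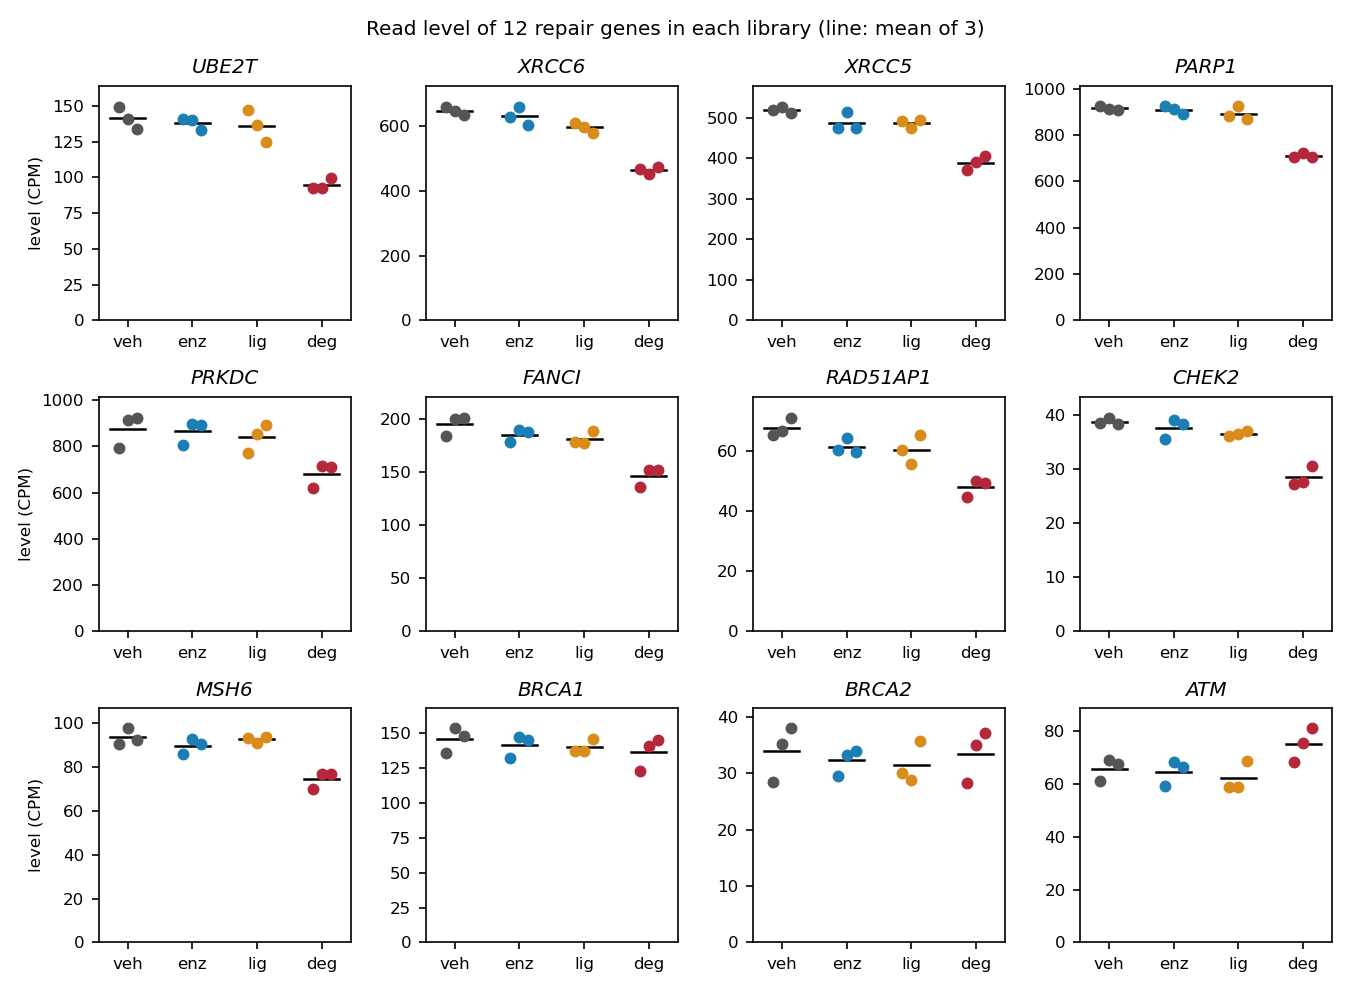
Level of 12 repair genes in CPM (vertical axes, each from 0) in the 3 libraries of each group (points; veh, vehicle; enz, enzalutamide; lig, ligand; deg, degrader), with the group mean as a line. The degrader points lie below all other points for UBE2T, XRCC6, XRCC5, PARP1, PRKDC, FANCI, RAD51AP1, CHEK2 and MSH6, overlap them for BRCA1 and BRCA2, and for ATM 2 of the 3 lie above all others.

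Among the kinases that signal breaks, the effector kinase CHEK2 fell and its activator ATM did not. CHEK2 was at 38.6, 39.6 and 38.4 CPM in vehicle cells, 35.6, 39.2 and 38.4 under enzalutamide, 36.2, 36.5 and 37.1 under the ligand, and 27.4, 27.6 and 30.6 under the degrader. All 3 degrader libraries thus lay below all 9 others, and the fall from vehicle was 26.5% (log2 fold change -0.44, SE 0.06, adjusted p = 1.5e-05). ATM was at 61.1, 69 and 67.7 CPM with vehicle and 68.3, 75.7 and 81.2 with the degrader, so that 1 degrader library lay within the vehicle range. Its log2 fold change of 0.19 (interval 0.02 to 0.35) was not called (adjusted p = 0.0734), but it was the highest of the 41. The adjusted p of ATM ran from 0.00403 to 0.282 over the alternatives and passed without ligand replicate 3 (0.0396), without degrader replicate 1 (0.0255) and with a replicate block (0.00403). ATR, the kinase for single-stranded DNA at stalled forks, was not called (46 ± 3.49 and 43.5 ± 3.78 CPM, -0.08). Its effector CHEK1 fell from 63.5 ± 4.12 to 54.7 ± 4.65 CPM (-0.22, adjusted p = 0.0404). The CHEK1 call was lost without vehicle replicates 2 (0.14) or 3 (0.122), enzalutamide replicate 3 (0.0569), ligand replicate 1 (0.0533), or degrader replicates 1 (0.176) or 2 (0.0794), and ranged from 0.00343 to 0.176. Together with NBN, 3 of the 7 sensing and kinase genes fell, with a median of -0.11.

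In the Fanconi pathway a core complex brings the ubiquitin ligase FANCL and the conjugating enzyme UBE2T to the FANCD2-FANCI pair, whose ubiquitination starts the unhooking of a crosslink. The conjugating enzyme and both of its substrates fell. UBE2T was at 149, 141 and 134 CPM with vehicle and 92.5, 92.7 and 99.6 with the degrader, against 133 to 141 with enzalutamide and 125 to 147 with the ligand. That fall of 32.8% was the largest of the 41 genes (log2 fold change -0.57, SE 0.06, adjusted p = 1.76e-06). FANCI was at 184, 200 and 201 with vehicle and 136, 152 and 152 with the degrader (-0.41, SE 0.05, adjusted p = 2.12e-05). FANCD2 was at 110.2, 113 and 120.3 with vehicle and 84.6, 94.1 and 101 with the degrader (-0.30, SE 0.07, adjusted p = 0.00229). For both substrates the degrader libraries lay below every library of the other 3 groups. Of the core complex, FANCA (79 ± 1.89 to 67.8 ± 2.68 CPM, -0.22, adjusted p = 0.00308) and FANCG (70.5 ± 1.45 to 61.2 ± 0.619, -0.20, adjusted p = 0.00291) fell, and these proteins bind each other. The other core genes FANCB, FANCC, FANCE, FANCF and FANCL and the fork-remodelling translocase FANCM were not called, with estimates from -0.16 for FANCM to 0.01 for FANCE. FANCF passed by DESeq2 (adjusted p = 0.0411) and with a replicate block (0.026), within a range of 0.026 to 0.261. On the opposite strand FANCF shares 11.3% of its exon bases with GAS2, and FANCL 18.7% with VRK2. Thus 5 of 11 Fanconi genes fell, with a median of -0.16. FANCA and RAD54L share 23.6% and 25.1% of their exon bases with ZNF276 and LRRC41 on the opposite strand, so part of their reads may be uncertain in the same way as for XRCC3.

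End joining held the most abundant transcripts and 5 of its 7 genes fell, with a median of -0.37. Both Ku subunits fell. XRCC6 went from 661, 649 and 636 CPM to 469.5, 452 and 476, and XRCC5 from 518, 527 and 511 to 370.2, 389.6 and 404. The log2 fold changes were -0.48 (SE 0.04, adjusted p = 4.28e-07) and -0.42 (SE 0.05, adjusted p = 3.48e-06). PRKDC, the DNA-dependent protein kinase that Ku recruits, was at 793, 912 and 923 with vehicle and 619, 715 and 709.6 with the degrader (-0.36, SE 0.07, adjusted p = 0.00097). Replicate 1 was the lowest PRKDC library in all 4 groups (793, 806, 773 and 619 CPM). PARP1 fell by 22.4%, from 926, 914 and 908 CPM to 706, 723 and 704 (-0.37, SE 0.04, adjusted p = 2.96e-06). POLQ, the polymerase of microhomology-mediated joining, fell from 52, 60.8 and 60.3 CPM to 38.1, 46 and 47 (-0.40, SE 0.09, adjusted p = 0.00183). The ligation factors were not called. LIG4, the ligase, was at 13.2 ± 0.608 and 14.5 ± 0.638 CPM (0.14, interval -0.04 to 0.32), and XRCC4, its scaffold, at 5.66 ± 0.616 and 5.1 ± 0.352 (-0.15, interval -0.37 to 0.08). XRCC6 and PARP1 each have processed or partial copies elsewhere in the genome, as do CHEK2, FANCD2, RAD51AP1, RBBP8, MRE11 and PMS2, so their counts are less certain where the reads could be shared.

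Of the mismatch repair genes, MSH6, a subunit of the mismatch-recognizing heterodimer, fell and PMS2, a subunit of the nicking heterodimer, did not pass. MSH6 was at 90.5, 97.6 and 92.3 CPM with vehicle and 70, 76.7 and 76.9 with the degrader, below all libraries of the other groups (-0.33, SE 0.05, adjusted p = 0.000119). PMS2 was at 63.3, 63.1 and 62.3 with vehicle and 65.8, 63.3 and 66.6 with the degrader (0.05, interval -0.04 to 0.15). MSH6 shares 16.2% of its exon bases with FBXO11 on the opposite strand.

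**Figure D3:**
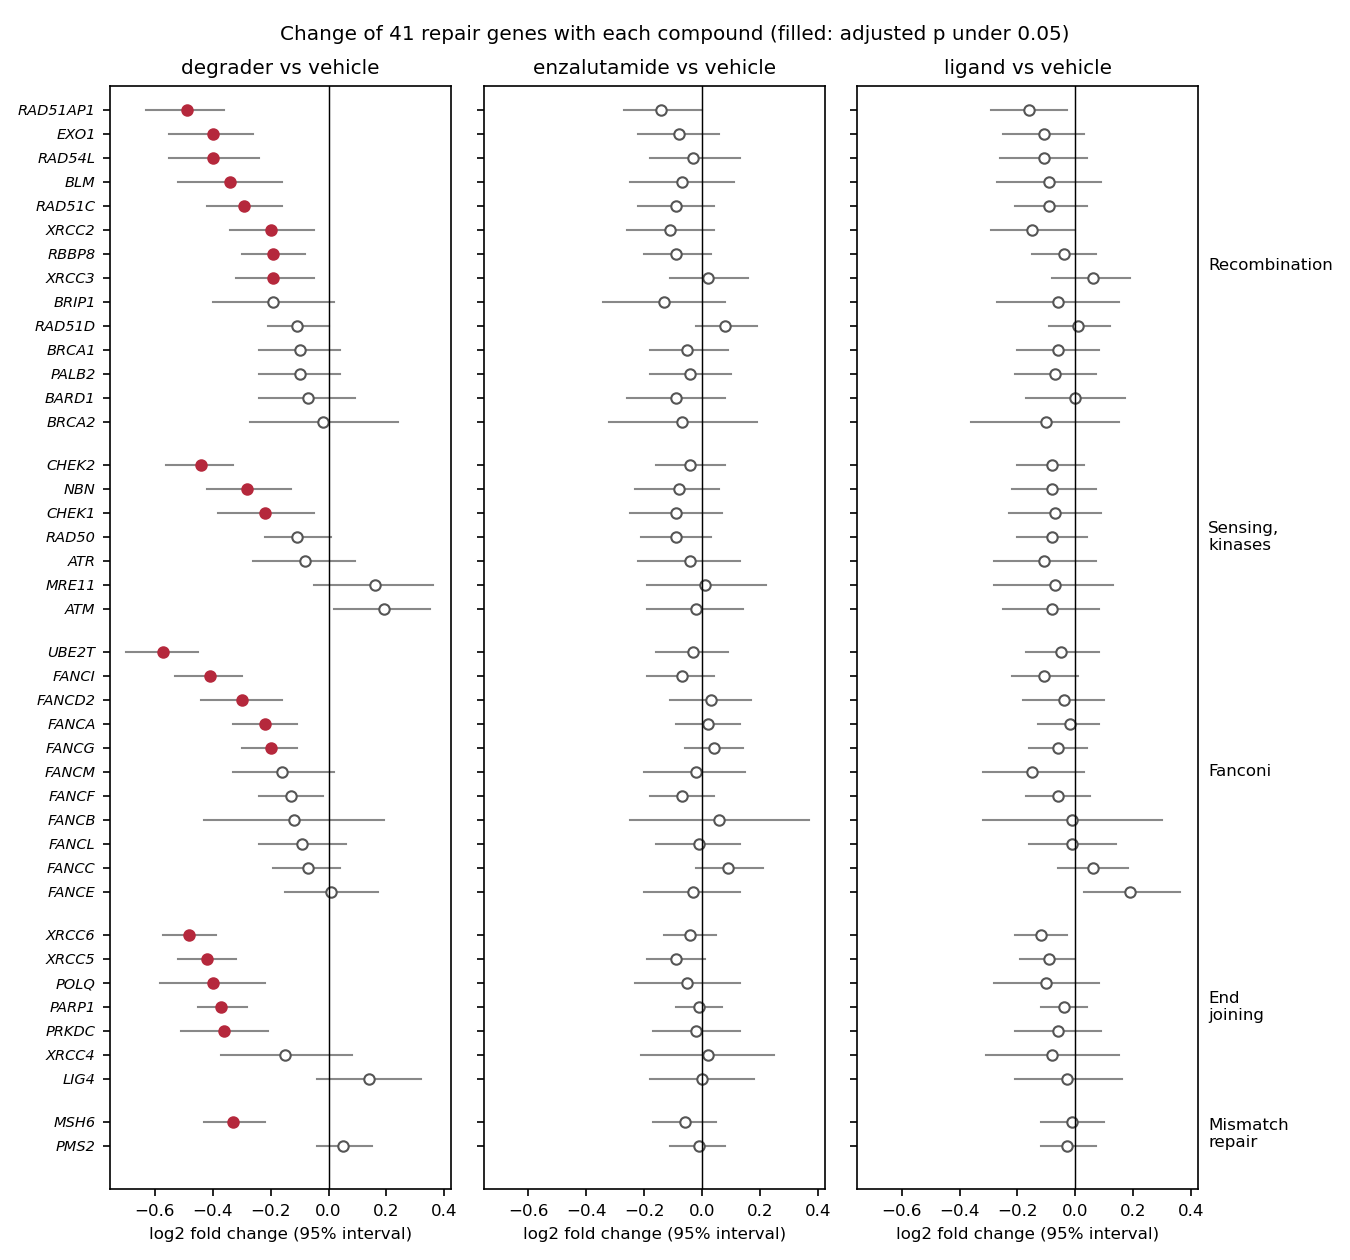
Log2 fold change (point) with its 95% interval (line, horizontal axis) of the 41 repair genes, by role, for degrader, enzalutamide and ligand against vehicle. Filled points passed an adjusted p of 0.05. The degrader panel has 22 filled points, all below 0, and the other panels have none.

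Enzalutamide changed none of the 41 repair genes by edgeR, where 1.44% of all genes were called. The fold changes ran from -0.14 to 0.09 with a median of -0.04. Of the 41 estimates 31 lay below 0, against 48.8% over all genes. Among the 41, 1 had an unadjusted p below 0.05, RAD51AP1 (61.6 ± 2.54 against 67.7 ± 2.97 CPM with vehicle, adjusted p = 0.499). DESeq2 also called none, with 1 gene below an unadjusted 0.05. The 95% intervals of the 41 genes lay between -0.34 and 0.37. For UBE2T the enzalutamide estimate was -0.03 (interval -0.16 to 0.09), and for CHEK2 it was -0.04 (-0.16 to 0.08).

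The ligand, too, changed none of the 41 by edgeR (background 0.237% of all genes), with fold changes from -0.16 to 0.19 and a median of -0.07. Of these estimates 37 of 41 lay below 0, against 51.4% over all genes; the vehicle libraries are shared with the other comparisons. Unadjusted, 3 genes were below 0.05 by edgeR and 3 by DESeq2, which called none either. XRCC6 had the smallest adjusted p (0.539), at 611, 599 and 581 CPM, all below the vehicle libraries. FANCE, a core complex subunit, had the highest estimate (0.19, interval 0.03 to 0.36, adjusted p = 0.576). The 41 intervals lay between -0.36 and 0.36.

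Against enzalutamide, the degrader lowered 21 of the 41 genes and raised 1, where 16.1% of all genes were called lower and 16.3% higher. Their median was -0.18. UBE2T (-0.54, SE 0.06, adjusted p = 3.71e-06) and XRCC6 (-0.44, SE 0.04, 1.23e-06) had the largest falls. RAD51D (-0.19, adjusted p = 0.00692) and FANCC (-0.17, 0.029), which had not passed against vehicle, were called here, and their enzalutamide means were 44.8 and 48.4 CPM. ATM was called higher (0.21, SE 0.08, adjusted p = 0.044). The ATM call was lost with another scaling (0.0515) and without the low-count filter (0.0529). It was also lost without vehicle replicates 2 (0.0544) or 3 (0.0505), enzalutamide replicates 1 (0.191) or 3 (0.0689), ligand replicate 1 (0.0503), or degrader replicates 2 (0.109) or 3 (0.197), within a range of 0.00142 to 0.197. Leaving out 1 library also ended the calls of NBN (without enzalutamide replicates 2 or 3 or any degrader replicate, adjusted p up to 0.137), BLM (without enzalutamide replicates 2 or 3 or degrader replicate 1, up to 0.126), FANCC (without enzalutamide replicate 2 or degrader replicates 1 or 2, up to 0.151), XRCC3 (without enzalutamide or degrader replicate 3, up to 0.0819) and RAD51C (without degrader replicate 1, 0.0758).

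Against the ligand, the degrader lowered 20 and raised 1, where 14.2% of all genes were called lower and 14.3% higher, with a median of -0.15. UBE2T (-0.52), XRCC6 (-0.36), CHEK2 (-0.36), RAD51AP1 (-0.33) and PARP1 (-0.33) had the largest falls. ATM was higher (0.27, SE 0.08, adjusted p = 0.0149), though its groups overlapped, with ligand libraries at 59, 59 and 68.8 CPM and degrader libraries at 68.3, 75.7 and 81.2. The groups also overlapped for NBN (-0.20, adjusted p = 0.0379) and RBBP8 (-0.15, 0.0466). The ATM call was lost without ligand replicates 1 (0.0747) or 2 (0.065) or degrader replicates 2 (0.0546) or 3 (0.0897), within a range of 0.000184 to 0.0897. RBBP8 was lost without any 1 of 9 libraries (all but enzalutamide replicate 1, ligand replicate 2 and degrader replicate 3), with adjusted p up to 0.195. NBN was lost without ligand replicates 1 or 3 or any degrader replicate (up to 0.173), and BLM without enzalutamide replicate 3, ligand replicates 2 or 3, or degrader replicates 1 or 2 (up to 0.198). FANCG was lost without ligand replicates 1 or 2 or degrader replicates 2 or 3 (up to 0.0933), RAD51C without ligand or degrader replicate 1 (up to 0.0914), and POLQ without degrader replicate 1 (0.0681). A fit on the degrader and ligand libraries alone called 15 genes lower, without RAD51C, BLM, RBBP8, NBN and FANCG. The 3 degrader comparisons share the degrader libraries. In all 3 of them the same 19 genes were called lower: RAD51C, RAD51AP1, RAD54L, XRCC3, BLM, EXO1, NBN, CHEK2, FANCA, FANCD2, FANCG, FANCI, UBE2T, XRCC5, XRCC6, PRKDC, PARP1, POLQ and MSH6. Another 16 were called in none, BRCA1, BRCA2, PALB2 and BARD1 among them. How many of all genes were called lower in all 3 was not counted, so the 19 have no background share.

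The design also allows a test of whether the degrader's change exceeded the sum of the enzalutamide and ligand changes on the log scale. It was more negative than that sum for 8 of the 41 genes and less negative for none, where 7.61% of all genes were called in each direction. UBE2T had the largest difference (-0.49, SE 0.08, adjusted p = 0.000886), followed by PARP1 (-0.32, SE 0.06, 0.00124), XRCC6 (-0.32, SE 0.06, 0.00245) and CHEK2 (-0.32, SE 0.08, 0.0123). These 4 kept their calls in all 18 alternatives. The other calls were FANCD2 (-0.28, 0.0491), MSH6 (-0.26, 0.0235), FANCI (-0.23, 0.0499) and XRCC5 (-0.23, 0.0234). FANCI kept its call without enzalutamide replicate 1 or degrader replicate 3 only and lost it without any other library (up to 0.111). FANCD2 lost its call without vehicle replicates 1 or 2, enzalutamide replicates 2 or 3, ligand replicates 2 or 3, or degrader replicates 1 or 2 (up to 0.117). MSH6 was lost without vehicle replicates 1 or 3, enzalutamide replicates 2 or 3, or degrader replicate 1 (up to 0.0573), and XRCC5 without vehicle replicate 3, enzalutamide replicate 2, ligand replicate 1 or degrader replicate 1 (up to 0.0599).

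The called falls with the degrader lay mostly among the more abundant genes. When the 41 genes were ordered by mean TPM and divided into 3 parts, a division chosen after the values were seen, 13 of the highest 14 fell (38.4 to 565 TPM, median -0.36), BRCA1 being the other. Of the middle 13, 8 fell (median -0.20), and of the lowest 14, 1 fell, POLQ (5.38 to 12.4 TPM, median -0.09). The share of all genes called lower also declined with level. It was 36.6% at or above 38.4 TPM, with no upper limit, and 16.7% and 10.2% in the TPM ranges of the middle and lowest parts. The median standard error of the repair genes went from 0.06 to 0.07 and 0.08. The lowest 14 include BRCA2, ATM, ATR, PALB2, BARD1, BRIP1, RAD51D and FANCM.

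Genes of the same pathways outside the 41 were described from a list of 53 symbols, all found. That list, too, was chosen with earlier results of these data known. With the degrader 19 fell (35.8%, against 16.4% of all genes) and 5 rose (9.43%, against 16.4%), with a median of -0.11. By edgeR none was called with enzalutamide or the ligand, where 1 and 2 had an unadjusted p below 0.05. The 6 with the smallest p among those that fell were LIG1, the replicative ligase (143 ± 1.97 to 103 ± 3.6 CPM, log2 fold change -0.47, adjusted p = 3.34e-06), PCNA, the sliding clamp (-0.30), MDC1, which binds marked chromatin at breaks (-0.30), EME1, a subunit of a structure-specific nuclease (-0.42), RPA1, which coats single-stranded DNA (-0.25), and RAD54B, a relative of RAD54L (-0.46). The 5 that rose were RAD9A, of the checkpoint clamp (24.5 ± 0.779 to 29.5 ± 0.236 CPM, 0.27, adjusted p = 0.00188), ABRAXAS1, which holds BRCA1 in a complex at breaks (0.30), MUS81, the catalytic partner of EME1 (0.19), and FAN1 and RMI2 (0.14 each), a nuclease and a BLM complex subunit. EME1 and MUS81 thus moved in opposite directions.

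Markers of the cell cycle moved with the repair genes. All 18 mitosis genes listed were called lower with the degrader (median -0.72), as were 19 of 21 replication genes (median -0.37), against 16.4% of all genes. Both lists were chosen with earlier results of these data known. As summed CPM, mitosis genes in the degrader libraries were at 57.6% to 62.4% of the vehicle mean, replication genes at 77.2% to 79.8% and the 41 repair genes at 76.1% to 82.8%. The repair sum is weighted by the abundant end joining genes, which held 3036 of its 5158 CPM in the vehicle mean. By gene, the median repair change (-0.19) was smaller than the median replication change (-0.37). By role the sums were at 73.2% to 77.8% for end joining, 76% to 83.9% for Fanconi, 79.5% to 90.6% for recombination, 87.2% to 91.7% for mismatch repair and 86.2% to 97.8% for sensing and kinase genes. The last range overlaps that of the vehicle libraries (93.7% to 105%). With enzalutamide the mitosis sum was at 93.1% to 101% and the repair sum at 94.2% to 101%. With the ligand these were at 88.8% to 92.7% and 93.8% to 97%. Cell type markers moved as well. Of the 9 luminal genes 6 were called lower with the degrader, and their sum was at 77.1% to 79.1% of the vehicle mean, against 85.6% to 89.2% with enzalutamide and 96.3% to 99.3% with the ligand. The basal keratin KRT15, at 1.13 to 1.96 TPM over all libraries, was called higher with the degrader (log2 fold change 0.50). Its estimate with the ligand was 0.54, not called (adjusted p = 0.347, edgeR), and degrader against ligand gave -0.04. CD68 (-0.31) and the neuroendocrine marker ENO2 (-0.31) were called lower with the degrader. CHGA and SYP, the other neuroendocrine genes, had estimates above 0 and were not called (median of the 3, 0.06). None of the 4 stromal genes was called. The part of the cell cycle and cell type lists in the repair gene result was not tested, and in RNA from whole cultures fewer cycling cells and less transcript per cell cannot be told apart.

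**Figure D4:**
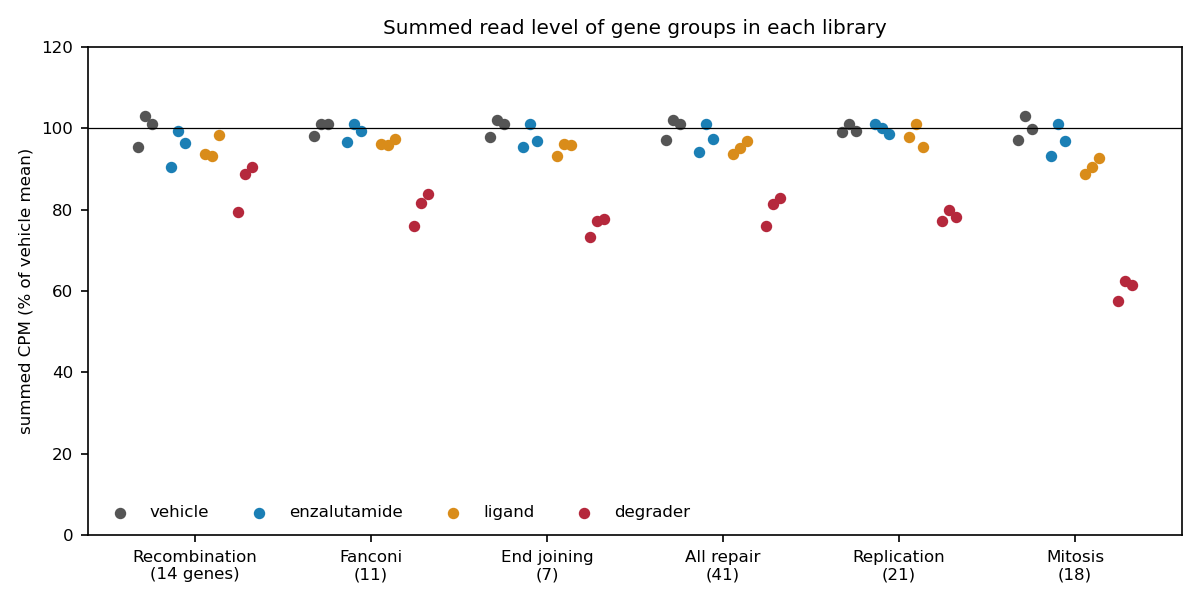
Summed CPM of the recombination (14), Fanconi (11), end joining (7), all repair (41), replication (21) and mitosis (18) genes in each library, as a percentage of the vehicle mean (vertical axis, from 0), coloured by group. End joining genes held 3036 of the 5158 CPM of the all repair sum in the vehicle mean. The degrader points lie lowest in 5 of the 6 sets, at 76.1% to 82.8% for all repair genes and 57.6% to 62.4% for mitosis genes; in the recombination set 1 degrader point (90.6%) lies beside the lowest enzalutamide point (90.5%).

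Within groups other than the ligand group, replicate 1 often had the lowest value of a repair gene. It was the lowest of its group for 27 of 41 genes in the vehicle group, 31 under enzalutamide, 16 under the ligand and 33 under the degrader. Over all 17702 genes tested it was lowest for 6419, 6622, 4821 and 6440, in the same order of groups. It was lowest in all 4 groups for 12 genes (ATM, ATR, BARD1, BLM, FANCA, FANCB, FANCC, FANCD2, MRE11, POLQ, PRKDC and RAD50), or 29.3%, against 5.79% of all genes tested. It was highest in all 4 groups for none of the 41, against 6.72% of all genes. This pattern was noticed after the values were seen and was not tested.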

How the data were processed

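RNA of 12 libraries (4 groups of 3) was prepared with a stranded mRNA kit, per the labels' protocols. The authors aligned the reads to GRCh37 and assembled them with HISAT2 and StringTie, per the submitters' processing notes; versions and counting options are not given in the sources used here. The deposited table, per the file headers, holds read counts and TPM per gene, and lists genes with at least 1 read in each library. Depth was 55.5 to 77.2 M counts. Read counts were tested with edgeR 4.0.16 (R 4.3.3; TMM scaling, filterByExpr with a minimum count of 10, robust quasi-likelihood fit over all 12 libraries, group as the single term, 8 residual degrees of freedom, Benjamini-Hochberg adjustment over 17702 genes, threshold 0.05). CPM are TMM-scaled; TPM were used only to compare levels between genes. The contrast beyond the sum is degrader minus enzalutamide minus ligand plus vehicle. All 41 genes are named; of the wider list, up to 6 called genes with the smallest p per direction; FKBP5 and KLK2 served as treatment checks. Alternatives were DESeq2 1.42.0, limma-voom 3.58.1, relative log expression scaling, other filters, fits on only the groups compared, a replicate block and leaving out each library. The members and gene lists were chosen with earlier results of these data known. The degrader's target is not reported here. Scripts were tested on simulated data.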

Additional observations from a re-analysis of the deposited data

How the results depend on the processing

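Precision is limited by 3 libraries a group: the 95% intervals of the 41 genes had a median half-width of 0.14 (log2) for the degrader against enzalutamide or the ligand. Genes called lower with the degrader numbered 22 against vehicle (18 to 22 without 1 library), 21 against enzalutamide (17 to 21) and 20 against the ligand (15 to 20); 18 of the 22 kept the call in every setting, XRCC2, XRCC3, RBBP8 and CHEK1 being the others. Genes called higher against vehicle numbered 0 to 1 without 1 library and 2 with a replicate block; against enzalutamide 0 with relative log expression scaling or no filter, 2 with the block and 0 to 1 without 1 library; against the ligand 2 with the block and 0 to 2 without 1 library. Beyond the sum of enzalutamide and ligand, 8 genes called lower (7.61% of all genes) became 14 by DESeq2 (9.74%), 13 with a minimum of 1 CPM (9.88%), 17 with the block (12.6%) and 4 to 9 without 1 library, and those called higher became 2 with the block and 0 to 1 without 1 library; the cause was not tested. With enzalutamide or the ligand against vehicle no repair gene was called in any setting. Estimates with the degrader that changed sign, none of them called, were those of BRCA2 (-0.13 to 0.09 without 1 library; 0.01 without vehicle replicate 2, 0.07 without vehicle replicate 3, 0.09 without degrader replicate 1), FANCB (-0.25 to 0.04) and FANCE (-0.03 to 0.05), both reversed without degrader replicate 1.

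The labels do not say that a replicate number marks a shared culture or day. Same-numbered libraries had deviations from their group means that correlated at -0.0323 to 0.207 over 18 pairs (median 0.085). Other pairs correlated at -0.169 to 0.0744 (median -0.0476), and 11 of 12 libraries correlated best with one of their own number. Not every same-numbered pair exceeded 0.1, and the numbers were not taken to pair the samples. The main fit thus leaves out any effect shared by libraries of the same number. With a replicate block 25 repair genes were called lower with the degrader against vehicle (20.4% of all genes, 16.4% without the block), among them BRIP1 (adjusted p = 0.0216), FANCF (0.026) and RAD50 (0.0377), and ATM (0.00403) and MRE11 (0.0328) were called higher; against the ligand 23 were called lower (18.2% of all genes, 14.2% without the block).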
